A study of Mus musculus with 8 samples.

Results

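The genes described here are Mbp, Mog, Mag, Mobp, Cnp and Cldn11, structural and enzymatic components of the myelin made by oligodendrocytes. They were followed through every probe whose platform annotation gave exactly 1 gene symbol, taking the brightest such probe of a gene by its mean log2 level. Of the 6 genes, 5 had such a probe, 1 each, out of 13840 genes so named by 14411 of the 33012 probes in the table. Mobp was among the listed genes and was not analysed here.

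Oligodendrocytes wrap axons of the central nervous system in a multilayered membrane that insulates them and speeds conduction. Mbp encodes myelin basic protein, which holds the cytoplasmic faces of the layers together. Cldn11 encodes the claudin of the tight junctions between layers, Cnp an enzyme of the cytoplasmic channels that stay open within the sheath, Mag a sialic acid-binding adhesion protein of the inner, axon-facing layer, and Mog an immunoglobulin-like glycoprotein of the outermost surface. The hypothalamus holds myelinated tracts and borders the optic chiasm, while liver has no oligodendrocytes.

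Each of 8 single-channel arrays was read from RNA pooled over 6 male mice. The pools covered hypothalamus and liver of C57BL/6J mice, called B6, and of homozygous B6.CAST-17 congenic mice, which carry a chromosome 17 donor segment on a B6 background. Neither the extent of the segment nor the age of the mice was known here. Mice of both strains were sampled on chow or after 24 h of free choice of a high-carbohydrate and a high-fat food (78% carbohydrate or fat, and 22% protein in each), called 2-choice below. Per the design text, the pooled mice were picked from 20 to 25 tested per strain for the most divergent nutrient intake, so they do not stand for an unselected colony. The design gives 10 days of self-selection and 6 weeks back on chow, so neither diet group is taken here as new to diet choice. With 1 array for each combination and no repeated pool, an error below is a standard error (SE) made from interactions between the factors, and the p-values carry no estimate of the variation among pools of the same kind.

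The marker genes went with the tissue labels. The mean log2 level of 8 neuron markers was 15.27 to 15.48 in the hypothalamus arrays and 9.59 to 10.09 in the liver arrays, and that of 4 hepatocyte markers was 8.49 to 9.91 against 19.69 to 20.17. The strain label of the hypothalamus chow pair went against a check on chromosome 17. For 4 of 4 genes used (Decr2, Cyp4f14, Glo1 and Agpat1) the congenic minus B6 difference of that pair had the opposite sign to both liver pairs, while the hypothalamus 2-choice pair had the same sign as the liver pairs. These 4 genes were picked with earlier results of these data known, so the check is not an independent one. Over all tested probes, 48.6% had the same strain sign in both hypothalamus pairs, so opposite signs there were common. Decr2 was at 1.38 in the hypothalamus chow pair and -3.26 in the 2-choice pair. Values of the hypothalamus chow pair are therefore given as labelled and, where a statement depends on its strain labels, also with the labels exchanged, an alternative chosen after seeing the data.

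The promoters of Mog, Mag, Cnp and Cldn11 are shown because all 4 genes were higher in hypothalamus, as described below. The promoter of Mbp was not used here. Each window runs from 250 bases before to 50 bases after the start of a RefSeq transcript on the mouse build GRCm38.p6, the C57BL/6J reference, and is read 5′ to 3′ on the gene's strand. Capitals mark a core of MYRF, the membrane-bound transcription factor of myelination (CTGGCAC or CTGGTAC), or a core of the SOX family, to which the oligodendrocyte regulator SOX10 belongs (ACAAAG or ACAATG), on either strand.
Mog promoter window, chr17:37023349-37023648, strand -: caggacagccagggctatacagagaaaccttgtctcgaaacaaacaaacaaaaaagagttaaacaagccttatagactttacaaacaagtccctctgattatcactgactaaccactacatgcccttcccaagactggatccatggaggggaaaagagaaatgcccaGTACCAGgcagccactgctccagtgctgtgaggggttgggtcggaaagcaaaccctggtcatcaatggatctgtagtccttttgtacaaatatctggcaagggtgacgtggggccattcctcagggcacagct
Mag promoter window, chr7:30914873-30915172, strand -: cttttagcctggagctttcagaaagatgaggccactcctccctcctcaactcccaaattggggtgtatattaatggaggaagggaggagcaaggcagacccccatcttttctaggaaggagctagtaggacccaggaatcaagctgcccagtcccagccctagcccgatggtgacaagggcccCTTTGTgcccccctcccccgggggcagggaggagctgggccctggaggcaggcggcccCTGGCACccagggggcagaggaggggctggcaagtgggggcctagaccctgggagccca
Cnp promoter window, chr11:100574689-100574988, strand +: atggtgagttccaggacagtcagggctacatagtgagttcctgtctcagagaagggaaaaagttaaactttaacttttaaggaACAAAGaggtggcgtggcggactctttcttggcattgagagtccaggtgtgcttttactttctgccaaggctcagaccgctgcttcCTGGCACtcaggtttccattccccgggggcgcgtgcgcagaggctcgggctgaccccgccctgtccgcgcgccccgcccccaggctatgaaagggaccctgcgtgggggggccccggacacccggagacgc
Cldn11 promoter window, chr3:31149670-31149969, strand +: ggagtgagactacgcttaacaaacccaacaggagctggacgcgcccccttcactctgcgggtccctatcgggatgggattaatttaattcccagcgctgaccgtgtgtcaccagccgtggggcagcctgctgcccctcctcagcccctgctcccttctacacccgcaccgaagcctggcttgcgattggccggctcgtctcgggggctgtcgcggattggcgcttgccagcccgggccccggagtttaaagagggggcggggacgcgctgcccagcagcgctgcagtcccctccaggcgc
A MYRF core was in the windows of Mog, Mag and Cnp and not in that of Cldn11. The same letters were in 7.1% of 32851 promoter windows. A SOX core was in the windows of Mag and Cnp, against 28.6% of all windows. Cnp also held the GC box GGGCGG on the reverse strand at 2 places and Cldn11 held it at 1, against 35.7% of windows, while the E-box CAGCTG (16.3%) and the TATA box TATAAA (13.6%) were in none of the 4 windows. The window of Mobp, which had no expression value, held 6 SOX cores and no MYRF core. A match of letters is a description and not a bound site. Of the 3 Mag windows in the table, the one at the annotated 5′ end of the gene was used.

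The 5 genes lie on 5 chromosomes, so strain differences at their own loci bear only on Mog. In GRCm38.p6, Mog spans 37010740 to 37023398 of chromosome 17, on the chromosome of the donor segment. Mbp lies on chromosome 18, Mag on 7, Cnp on 11 and Cldn11 on 3.

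The first comparison set hypothalamus against liver. All 5 myelin genes were higher in hypothalamus, and for all 5 each of the 4 hypothalamus arrays lay above each of the 4 liver arrays. Mbp had log2 levels of 16.62 (B6 chow), 16.89 (congenic chow), 17.83 (B6 2-choice) and 17.46 (congenic 2-choice) in hypothalamus. In liver it was at 8.80, 10.12, 8.10 and 8.53 in the same order. Levels are log2 intensities brought to a common distribution over the 4 arrays of a tissue. The difference was 8.31 ± 0.40 SE (95% interval 7.43 to 9.20), about 318-fold (limma, adjusted p = 1.46e-08).

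The liver values of the other 4 genes were also low. Across the 5 genes, 13 of 20 liver values were under the liver median of 9.45, which makes the size of each difference depend on a floor. Cldn11 was at 11.68, 12.67, 13.31 and 12.64 in hypothalamus, in the order B6 chow, congenic chow, B6 2-choice and congenic 2-choice. Its liver levels were 8.62, 7.94, 9.39 and 8.20, all under the liver median, and the difference was 4.04 ± 0.43 SE (limma, adjusted p = 1.41e-05). Mog, the surface glycoprotein, was at 13.07, 13.12, 13.66 and 13.53 in hypothalamus and 10.42, 10.71, 8.72 and 10.71 in liver. Of the 5 genes, Mog was the one with most liver values above the liver median, 3 of 4, and its difference of 3.21 ± 0.42 SE passed (limma, adjusted p = 7.92e-05).

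Mag, the adhesion protein of the axon-facing layer, was at 12.20, 12.04, 12.95 and 12.75 in hypothalamus. In liver it was at 9.61, 9.12, 9.24 and 9.56, and the difference was 3.11 ± 0.37 SE (limma, adjusted p = 3.75e-05). Cnp, the enzyme of the cytoplasmic channels, was at 11.02, 12.03, 12.85 and 12.71 in hypothalamus and 8.98, 9.33, 9.47 and 9.33 in liver. The lowest hypothalamus value of Cnp, on the B6 chow array, was 1.56 above its highest liver value, the narrowest such gap of the 5, and the difference was 2.88 ± 0.40 SE (limma, adjusted p = 1.49e-04).

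These 5 calls stand against a background in which 14.9% of all 33012 probes passed as higher in hypothalamus and 14.6% as lower (29.5% in all), and 15.7% had all 4 hypothalamus arrays above all 4 liver arrays. The genes are known brain genes and were listed with earlier results in view. The median difference over all probes was 0.08. In these bulk samples, fewer cells of a type and less RNA per cell cannot be told apart. With the chow pairs of both tissues left out, all 5 passed again, with wider differences, for example 5.0 for Mog and 4.53 for Cnp, on arrays scaled without the chow ones. In that fit 10250 of the 33012 probes passed as higher in hypothalamus. The median difference over all probes was then 0.55, so wider differences were not particular to these genes.

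**Figure D1:**
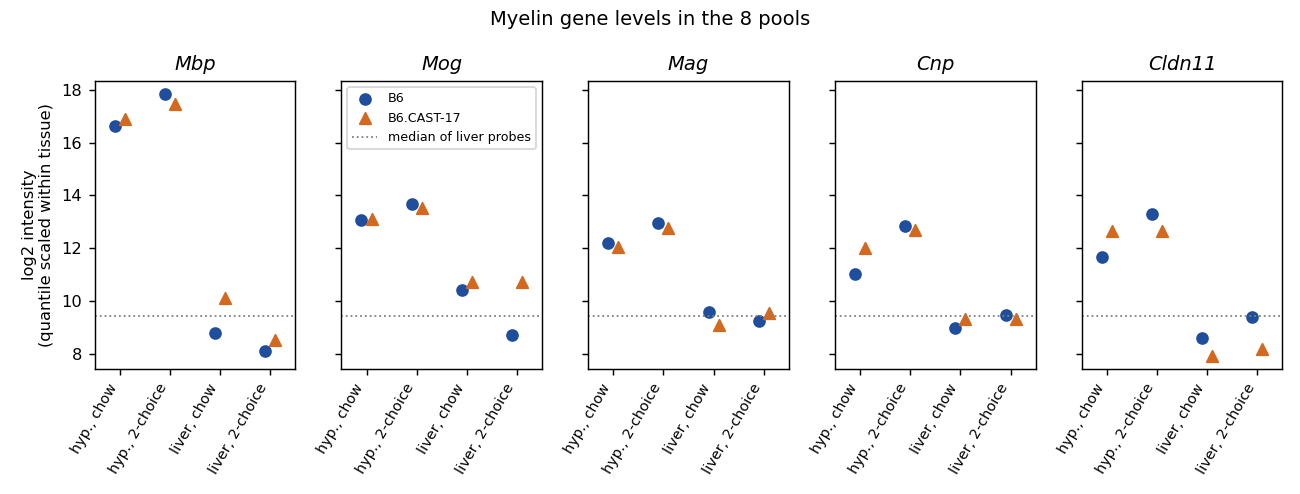
Log2 intensity, scaled within each tissue, of Mbp, Mog, Mag, Cnp and Cldn11 (1 panel each) in the 8 pools, with circles for B6 and triangles for B6.CAST-17 and a dotted line at the median of all liver values (9.45). Every hypothalamus point lies above every liver point of the same gene; levels of different probes are not comparable with each other.

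A wider list of myelin and mature oligodendrocyte genes was less uniform between the tissues. Of 25 measured genes of 32 listed, 16 passed as higher in hypothalamus and 3 as lower (median log2 difference 1.71). Omg, which encodes oligodendrocyte myelin glycoprotein, was higher by 7.89 ± 0.26 SE (limma, adjusted p = 7.09e-10), Bcas1, a marker of oligodendrocytes that have begun to myelinate, by 6.10 ± 0.37 (adjusted p = 9.21e-08), and Gpr37, an oligodendrocyte receptor, by 5.81 ± 0.36 (adjusted p = 1.11e-07). Others that passed as higher were Car2 (4.76 ± 0.30 SE), a carbonic anhydrase, the small heat shock gene Cryab (4.09 ± 0.22 SE), Evi2a, Ndrg1, Adamts4, Klk6 and Pllp. Mal, a proteolipid of myelin membranes, was higher by 2.85 ± 0.31 (limma, adjusted p = 1.96e-05). Tppp, Plekhb1, Gjc3, Gsn and Sirt2 complete the 16. The 3 genes lower in hypothalamus were the transferrin gene Trf (-5.39 ± 0.21), the gap junction gene Gjb1 (-5.90 ± 0.39) and the dihydropteridine reductase gene Qdpr (-1.53 ± 0.18), all with known expression in hepatocytes (limma, adjusted p of 2.17e-09, 2.23e-07 and 4.3e-05).

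Regulators and precursor genes split in the same comparison. Of 7 measured oligodendrocyte transcription factors, Olig1, Zeb2, Nkx6-2 and Nkx2-2 passed as higher in hypothalamus, with Nkx6-2 (4.63 ± 0.48 SE) and Nkx2-2 (3.60 ± 0.43 SE) being homeobox genes of the lineage (limma, adjusted p of 1.18e-05 and 3.72e-05). Olig1 was higher by 2.53 ± 0.59 (limma, adjusted p = 0.00622), while its neighbour Olig2, the lineage-determining factor, had nearly equal means of 10.89 and 11.15 and did not pass (adjusted p = 0.688). Of 7 precursor genes 4 passed as higher, with Cspg4, the NG2 proteoglycan, at 2.79 ± 0.54 (limma, adjusted p = 0.00162) and the growth factor receptor gene Pdgfra at 1.62 ± 0.54 (adjusted p = 0.0425). The extracellular matrix gene Tnr, for tenascin-R, was at 2.61 ± 0.45 SE (limma, adjusted p = 8.05e-04), and Cacng4 at 1.78 ± 0.48 (adjusted p = 0.0138). Among 7 genes of galactolipid metabolism Fa2h, the hydroxylase of myelin galactolipids, was higher (6.14 ± 0.36 SE, limma, adjusted p = 6.99e-08) and Cers2, Elovl1 and Arsa were lower. Of 3 measured Schwann cell genes, Drp2 passed as higher (3.68 ± 0.37 SE, limma, adjusted p = 8.58e-06), and Pmp22 and Egr2 did not.

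A list of nodal and axonal partners of myelin was also mostly higher in hypothalamus, with 12 of 14 genes passing and none passing as lower. Cntn1, an axonal adhesion protein that takes part in paranodal junctions, was higher by 8.80 ± 0.25 SE (limma, adjusted p = 1.97e-10) and Nefl, the light neurofilament subunit, by 8.17 ± 0.38 (adjusted p = 9.85e-09). Rtn4, which encodes Nogo, was higher by 0.95 ± 0.22 (limma, adjusted p = 0.00493). The other 9 were the potassium channel genes Kcna1 and Kcna2, the sodium channel gene Scn8a, the scaffold genes Ank3 and Sptbn4, Cntnap2, Lingo1, Nefm and Nefh.

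Among the marker lists of other brain cells, the neuron genes Stmn2, Gad1, Tubb3, Eno2, Syn1, Slc17a6 and Syt1 passed as higher in hypothalamus. The remaining measured neuron gene, Snap25, had means of 8.46 in hypothalamus and 8.3 in liver and did not pass. The astrocyte genes Aldoc (4.94 ± 0.18 SE), Slc1a3 and Gja1 passed as higher and Aldh1l1 (-5.18 ± 0.16 SE) and Slc1a2 as lower (limma, adjusted p of 1.10e-09 for Aldoc and 4.32e-10 for Aldh1l1). The microglia genes Tmem119, P2ry12 and Trem2 passed as higher, as did Kl, Foxj1 and Vim of the choroid plexus, ependymal and tanycyte list and Pomc and Cga of the pituitary list. The microglia genes Aif1 (10.44 in hypothalamus, 10.88 in liver) and Itgam did not pass. Nor did Folr1 and Rax of the choroid plexus, ependymal and tanycyte list, or Gh, Prl, Tshb and Lhb of the pituitary list. Ttr, Aqp1 and the hepatocyte genes Alb, Apoa1, Tat and Fgb passed as lower. The endothelial genes Cldn5 and Slc2a1 were higher and Slco1a4 lower, and Pecam1 did not pass.

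The second comparison asked whether the congenic strain differed from B6 in hypothalamus. None of the 5 genes passed, with the hypothalamus chow labels as given or exchanged. As labelled, no gene had both congenic arrays above or below both B6 arrays (23% of tested probes did), and 4 of 5 had differences of opposite sign in the diet pairs. With the labels exchanged, Cldn11 had both congenic arrays below both B6 arrays (22.9% of tested probes then had both above or below), and 4 of 5 genes were lower in the congenic strain on both diets, against 25.7% of tested probes. Mbp differed by 0.27 in the chow pair, as labelled, and by -0.37 in the 2-choice pair, with a fitted mean of -0.05 ± 0.30 SE (95% interval -0.73 to 0.63, limma, adjusted p = 0.985). With the chow labels exchanged, the Mbp pairs were -0.27 and -0.37. As labelled, Mag was the 1 gene with the same sign in both pairs, at -0.16 and -0.20, and exchanged it was the 1 with opposite signs, at 0.16 and -0.20. Its fitted mean as labelled was -0.18 ± 0.50 SE (limma, adjusted p = 0.963).

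Mog, the member on chromosome 17, differed by 0.05 in the chow pair (-0.05 with labels exchanged) and -0.13 in the 2-choice pair of hypothalamus. Its fitted difference was -0.04 ± 0.46 SE with an interval of -1.09 to 1.01 (limma, adjusted p = 0.993), so a change of up to about 1 log2 unit either way lies within the interval. In liver the Mog differences were 0.28 on chow and 1.99 on 2-choice, the latter from the low B6 2-choice value of 8.72. The sequence of the probe was not used here, so whether donor alleles alter its binding was not tested.

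The widest strain differences were those of Cnp and Cldn11 in the chow pair, and Cldn11 also had the widest difference of the 5 genes in the 2-choice pair. Cnp differed by 1.00 on chow and -0.14 on 2-choice, with a mean of 0.43 ± 0.56 SE (limma, adjusted p = 0.902). Cldn11 differed by 0.99 on chow and -0.68 on 2-choice, with a mean of 0.16 ± 0.61 SE (limma, adjusted p = 0.978). With the chow labels exchanged, the means were -0.57 for Cnp and -0.83 for Cldn11, and neither passed (limma, adjusted p of 0.833 and 0.788). The chow pair was the more scattered over all 19807 probes tested in hypothalamus, with a median absolute strain difference of 0.61 against 0.21 in the 2-choice pair. Among the 7081 probes at least as bright as the dimmest member the medians were 0.31 and 0.14.

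No probe of the 19807 passed between strains (0%), with 983 at an unadjusted p under 0.05 (limma, lowest adjusted p 0.203). As labelled, the strain difference had the same sign in both diet pairs for 48.6% of tested probes, and 25.3% were higher on chow and lower on 2-choice in the congenic arrays, as were 4 of the 5 genes here. The 24 other myelin genes tested had a median strain difference of 0.10, and none passed. The difference between the strain differences of the diet pairs (2-choice minus chow) was -1.67 for Cldn11, -1.14 for Cnp, -0.64 for Mbp, -0.17 for Mog and -0.04 for Mag as labelled. With the labels exchanged it was 0.31, 0.86, -0.10, -0.08 and -0.36 in the same order. The design leaves no error term for it.

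**Figure D2:**
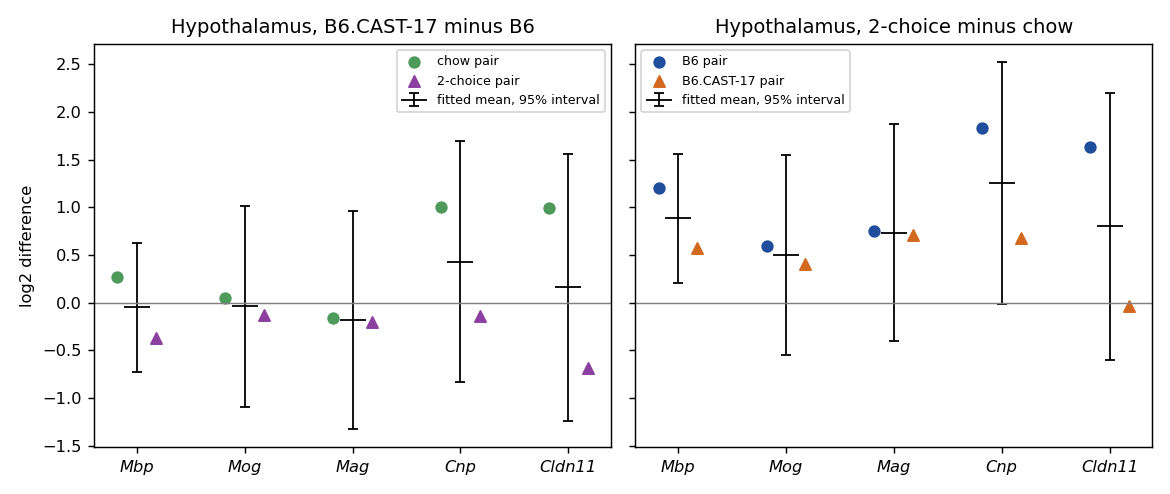
Log2 differences in hypothalamus for the 5 genes, congenic minus B6 (left, chow pair as circles and 2-choice pair as triangles) and 2-choice minus chow (right, B6 pair as circles and B6.CAST-17 pair as triangles), with the fitted mean and its 95% interval from limma. With the chow labels as given, strain points fall on both sides of 0 for all but Mag, and 9 of the 10 diet points lie above 0.

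The third comparison was 2-choice against chow in hypothalamus. All 5 genes had higher mean levels on 2-choice and none passed the test. For Mbp, Mog, Mag and Cnp both 2-choice arrays lay above both chow arrays, and Cldn11 overlapped, at 12.67 on congenic chow against 12.64 on congenic 2-choice. The means do not depend on which chow array is which strain. For all 5 genes the B6 2-choice array was the highest of the 4, and for all but Mag the array labelled B6 chow was the lowest.

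Mbp was higher on 2-choice by 1.20 in B6 and 0.57 in the congenic strain (0.94 and 0.83 with the chow labels exchanged), a mean of 0.89 ± 0.30 SE, or 1.85-fold (95% interval 0.21 to 1.56 on the log2 scale, limma, unadjusted p = 0.0165, adjusted p = 0.154). It was the 1 member whose interval lay above 0. Over all tested probes of this fit, 4143 of 19807 had an unadjusted p under 0.05 in either direction (limma). Cnp had the largest mean difference of the 5, 1.25 ± 0.56 SE (1.83 in B6 and 0.68 in the congenic strain as labelled, 0.82 and 1.69 exchanged), and did not pass (limma, adjusted p = 0.242). Mag differed by 0.75 and 0.71 as labelled and by 0.91 and 0.55 exchanged (mean 0.73 ± 0.50 SE, limma, adjusted p = 0.432).

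Mog differed by 0.59 and 0.41, or 0.54 and 0.46 exchanged (mean 0.50 ± 0.46 SE, limma, adjusted p = 0.565), the smallest mean of the 5. Cldn11 differed by 1.63 in B6 and by -0.04 in the congenic strain as labelled. Exchanged, the pairs were 0.64 and 0.96, both above 0, and the mean of 0.80 ± 0.61 SE is the same either way (limma, adjusted p = 0.485 as labelled and 0.432 exchanged). In liver the same probes moved in no common direction. Mbp was at -0.70 and -1.59 there, in B6 and congenic order, Cldn11 at 0.76 and 0.26, and Mag at -0.37 and 0.44. Of the 4 liver values of each gene, 3 for Mbp, 4 for Cldn11 and 2 for Mag lay under the liver median of 9.45. The Mbp value on congenic chow, 10.12, lay above it.

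Of the tested probes, 29.2% had both 2-choice arrays above both chow arrays, and 30.1% of those at least as bright as the dimmest member; the B6 2-choice array was the highest in 24.5% and the B6 chow array the lowest in 32.8%. The median diet difference of the 5 genes was 0.80, against 0.07 over all tested probes. limma called 97 of the 19807 probes (0.49%), 70 higher (0.353%) and 27 lower (0.136%) on 2-choice. That count moved to between 444 and 2418 when 1 hypothalamus array was left out, and to 250 with the chow strain labels exchanged, with none of the 5 genes passing in any of these 5 fits. With 1 hypothalamus array left out, the residual spread comes from the liver arrays alone. It was 0 when the variance had no trend on level, with 3367 at an unadjusted p under 0.05.

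Diet and scale cannot be told apart in hypothalamus. When the values of an array were sorted, B6 and congenic arrays matched each other to within 0.243% in each of the 4 pairs, which shows that a pair had been given 1 distribution before deposit. The 2-choice hypothalamus pair had a median intensity of 1338 against 560 for the chow pair. At the 75th and 90th percentiles the 2-choice pair stood 2.23 and 2.21 log2 units higher. On this deposited scale Mbp had intensities of 50486 (B6 chow), 61324 (congenic chow), 436268 (B6 2-choice) and 358947 (congenic 2-choice), and the 5 genes differed by 2.74 to 3.47 log2 units against a median of 2.05 over tested probes. All 5 then passed, as did 15430 of 19807 probes, 15377 of them higher. With arrays centred on their medians the 5 differences were 1.49 to 2.22 against a median of 0.79, and all 5 passed among 7633 called probes, 7167 of them higher.

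Ranks within an array do not depend on such scaling, but the levels scaled within a tissue were made from the same ranks. The ranks are thus the same observation on another scale and not a separate check. Whether the arrays differed in sensitivity was not tested. The percentile rank of Mbp among all probes was 98.5 and 98.8 on the chow arrays (B6 first) and 99.5 and 99.3 on the 2-choice arrays. Mog moved from 85.1 and 85.4 to 88.8 and 88.1, and Mag from 78.2 and 76.8 to 84.2 and 82.6. Cnp ranked at 66.8 and 76.7 on chow and 83.4 and 82.3 on 2-choice. Cldn11 was the exception, with 73.5 and 82.0 on chow and 86.7 and 81.7 on 2-choice.

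**Figure D3:**
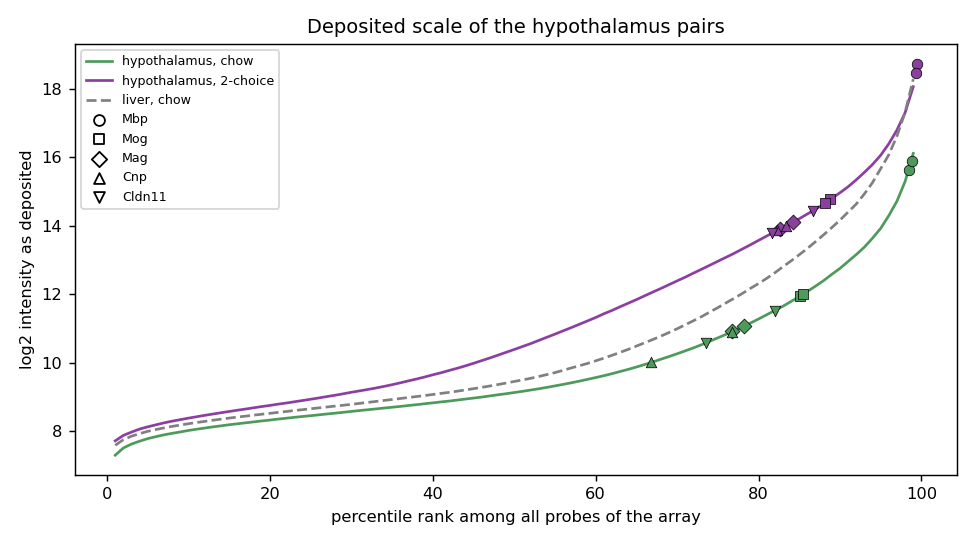
Deposited log2 intensity against the percentile rank among all probes of the array, as curves for the B6 arrays of hypothalamus chow, hypothalamus 2-choice and liver chow, with the 5 myelin genes marked on all 4 hypothalamus arrays. The 2-choice curve lies above the chow curve over its whole range, by 2.23 log2 units at the 75th percentile, and the gene marks lie further right on 2-choice for all but the congenic pair of Cldn11, with strains as labelled.

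The wider myelin list did not move as a block with diet. Of 24 tested genes, 9 had both 2-choice arrays above both chow arrays (29.2% of all tested probes did) and 5 had both below (24.8%), a count that uses no strain label. The median difference was 0.25, and none passed. Among the 9 were Plekhb1 (0.85 ± 0.29 SE), the tubulin polymerisation gene Tppp (0.66 ± 0.23) and Trf (0.74 ± 0.18), with adjusted p of 0.157, 0.165 and 0.0912 by limma. Sirt2, a deacetylase abundant in myelin, was at -0.52 ± 0.15 (limma, adjusted p = 0.126), Gsn, the actin-severing gelsolin, at -0.41 ± 0.25 and the connexin gene Gjc3 at -0.18 ± 0.62. Omg was nearly level, at 16.32 and 16.22 on chow and 16.43 and 16.43 on 2-choice, B6 first.

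Transcription factors of the lineage had a median diet difference of 0.83, with both 2-choice arrays above both chow arrays for 4 of 7 and below for 1, and none passed. Olig1 was at 11.85 and 9.58 on chow and 12.70 and 12.25 on 2-choice, the low value being the array labelled congenic chow, and its mean difference of 1.76 ± 0.65 SE did not pass (limma, adjusted p = 0.178). Zeb2, which antagonises inhibitors of myelination, ran the other way at -1.34 ± 0.33 (limma, adjusted p = 0.0947). Precursor genes had a median of 0.43, with both 2-choice arrays above both chow arrays for 3 of 7 and below for 1. Nodal and axonal partners of myelin had a median of 0.28, with 6 of 14 above and 1 below, and Nefl was at 0.02 ± 0.52.

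In the galactolipid list 1 of 6 tested genes passed. Psap, the precursor of the saposins that activate sphingolipid hydrolases, was at 15.72 and 15.62 on chow and 17.01 and 16.61 on 2-choice, B6 first, a rise of 1.14 ± 0.16 SE (limma, adjusted p = 0.0317). Psap is expressed in many cell types, and its hypothalamus and liver means were 16.24 and 15.64. Fa2h was at 0.23 ± 0.51 and did not pass (limma, adjusted p = 0.824).

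Among markers of other cells, Gh and Ttr passed with diet. The 6 measured anterior pituitary markers had mean log2 levels of 10.01 and 9.71 on the chow arrays and 12.24 and 11.46 on the 2-choice arrays, B6 first. Growth hormone, Gh, was at 8.28 and 8.74 on chow and at 14.31 and 12.24 on 2-choice, and passed (4.77 ± 0.76 SE, limma, adjusted p = 0.0443). Both of its chow values were under the hypothalamus filter level of 9.26. Gh was thus tested only through the 2-choice arrays, where it was high, and the size of its difference depends on a floor. Cga and Prl, which encode the glycoprotein hormone alpha chain and prolactin, were higher by 3.93 ± 0.68 and 3.13 ± 0.66 and did not pass (limma, adjusted p of 0.051 and 0.0718), while Pomc, Tshb and Lhb were at 0.34, 0.21 and -0.44. Both chow values of Prl (9.22 and 8.62) and the B6 chow value of Cga (8.61) were also under the filter level. Ttr, the transthyretin of choroid plexus and liver, rose by 2.56 ± 0.26 (limma, adjusted p = 0.00806). Of 5 tested markers of choroid plexus, ependyma and tanycytes, Ttr was the 1 with both 2-choice arrays above both chow arrays, and Foxj1, the regulator of motile cilia, and Vim had both below. The part of such tissue in the myelin values was not tested.

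The other cell type lists had no gene that passed with diet. Neuron markers had a median difference of 0.05 over 7 tested genes, astrocyte markers 0.31 over 5, microglia markers 0.33 over 4 and brain endothelial markers 0.89 over 4. The Schwann cell list had 2 tested genes and a median of -0.01, with Pmp22 at 0.67 ± 0.71 SE and Drp2 at -0.68 ± 0.54. Of 4 measured hepatocyte markers 2 were tested, Alb and Apoa1, and both were highest on the congenic 2-choice hypothalamus array. Alb was at 11.42 there against 8.75 to 9.35 on the other 3, and Apoa1 at 11.12 against 8.84 to 9.24. Their means passed the hypothalamus filter level of 9.26 only through that array. The 2 markers not tested did not follow. Fgb was at 8.24 on that array against 8.09 to 8.46 on the other 3. Tat was at 8.86 on it and highest on B6 chow, at 10.51.

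**Figure D4:**
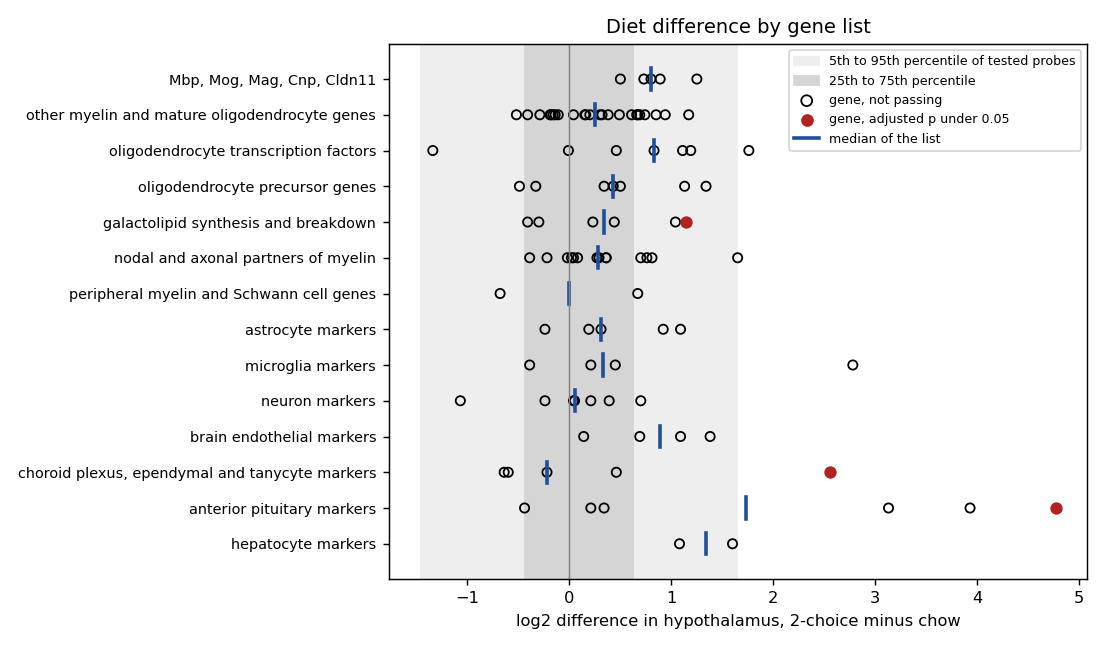
Fitted log2 difference between 2-choice and chow in hypothalamus for each tested gene of each list (open circles, or filled where the adjusted p was under 0.05), with the median of each list as a bar and shaded bands for all 19807 tested probes. The 5 myelin genes lie between 0.50 and 1.25 and none is filled; Psap, Ttr and Gh are the 3 filled points.

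The genes whose profile was most like the myelin mean were sought over the 8 arrays, by the root mean square difference of centred log2 levels among 13789 genes outside the oligodendrocyte lists. The closest were Kcnma1, a calcium-activated potassium channel gene (0.119), Adap1 (0.142), the neuronal adhesion gene Ntm (0.154), Itm2c (0.157) and the spermine synthase gene Sms (0.173). Kcnma1 was at 13.05, 13.31, 14.02 and 13.80 in hypothalamus and 9.42, 9.28, 8.78 and 9.11 in liver, in the order B6 chow, congenic chow, B6 2-choice and congenic 2-choice. The single myelin genes lay farther from their own mean, from 0.545 for Cldn11 to 2.05 for Mbp, whose tissue difference was the widest, and 194 genes lay closer to it than Cldn11. The profile is dominated by the step between tissues, and 1 array per condition shares its scaling across all genes.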

How the data were processed

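Per the labels' protocols, digoxigenin-labelled cRNA made from 1 microgram of total RNA was hybridised to single-channel arrays. What the submitters deposited is an intensity per probe on a linear scale. Their background correction and normalization: not given in the sources used here. No detection flags were used. The number of arrays, 8 with no repeated pool, limits the precision. Groups came from sample titles, which match the characteristics; some free-text descriptions name another strain, tissue or diet. Of the probes, 14411 had 1 gene symbol, 247 several and 18354 none in the annotation used. Symbols were updated through Entrez IDs (14402 matched RefSeq).

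Values were taken to log2 and given the same quantiles within a tissue (4 arrays). All tests used limma 3.58.1 (R 4.3.3), a variance trend on level and Benjamini-Hochberg adjustment, with a threshold of 0.05. Tissue was fitted over all 33012 probes with 4 strain and diet pairs as blocks (3 residual degrees of freedom). Strain and diet within hypothalamus came from 1 fit of 8 arrays (2 residual degrees of freedom) over 19807 probes at or above the 40th percentile of mean hypothalamus level (9.26); all 5 genes passed that filter. The scripts were tested on simulated data. Scaling, offset, filter, variance model, arrays left out and the strain labels of the hypothalamus chow pair were varied. Members, lists and tests were chosen with earlier results of these data known. Named genes were the members, the brightest 3 in hypothalamus and the called genes of each list, 4 genes for the strain check and the 5 nearest profiles; further genes of the lists were chosen after their values were seen. Promoter sequences are from RefSeq.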

Additional observations from a re-analysis of the deposited data

Results flagged for a closer look

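Mog in the B6 2-choice liver pool, at a log2 level of 8.72, lay far from the other 3 liver pools (10.42 to 10.71). The gap was 0.857 of the whole range, above Dixon's 95% critical value for 4 samples, which chance passes in about 1 of 20 groups. The rule was applied to each of the 5 genes in each tissue, and this was the only group flagged. The Mbp diet difference had opposite signs in the tissues, higher on 2-choice in both hypothalamus pairs (1.20 and 0.57) and lower in both liver pairs (-0.70 and -1.59), where 3 of 4 values lay under the 40th percentile of liver probes (9.04). The difference between the tissues was 2.03 ± 0.44 SE and did not pass (limma over 33012 probes, adjusted p = 0.217).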

How the results depend on the processing

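The labels carry no replicate numbers, and the tissue fit is itself blocked on the 4 strain and diet pairs. Each gene had 1 probe, so other rules for choosing it gave the same values. The tissue difference of all 5 genes kept its direction and passed in each of 12 alternatives. The called probes fell from 9731 to 5720 on the deposited scale and rose to 12769 without both chow pairs. For strain, none of the 5 genes passed in any of 15 alternatives. Called probes were 1 on the deposited scale, 1 with median-centred arrays, 21 with the hypothalamus arrays alone, 86 without the hypothalamus chow pair, 620 without the 2-choice pair, 3 with the strain labels of the hypothalamus chow pair exchanged and 38 to 904 without 1 hypothalamus array. Omitting a hypothalamus pair or array leaves a spread from the liver arrays alone, so a missed call there says little. Leaving out the 2-choice pair, leaving out both chow pairs and exchanging labels were added after seeing the data. With a hypothalamus array or pair left out, a strain or diet estimate is the difference of the pair that remains whole, apart from rescaling. A turn of sign there repeats the pair values given above. The sign turned for Cnp (-0.14) and Cldn11 (-0.67) without either chow array, and for both without the chow pair (-0.14 and -0.65) and with labels exchanged (-0.57 and -0.83). It also turned for Mbp (0.27) and Mog (0.05) without either 2-choice array, and without that pair (0.28 and 0.05). Over the fits without 1 array, strain differences ranged from -0.34 to 0.27 for Mbp, -0.12 to 0.05 for Mog, -0.14 to 0.97 for Cnp and -0.67 to 0.98 for Cldn11. For diet, called probes were 15430 on the deposited scale, 7633 with median centring, 202 with quantiles over 8 arrays, 43 with the 60th percentile filter, 753 with the hypothalamus arrays alone, 250 with labels exchanged, 444 to 2418 without 1 array and 0 without a variance trend (limma, 3367 at an unadjusted p under 0.05). Of the 5 genes, 5 passed on the deposited scale, 5 with median centring and 1, Mbp (0.89, limma, adjusted p = 0.0179; 2.55e-05 to 0.532 over its alternatives), with the hypothalamus arrays alone. Cldn11 turned to -0.04 without either B6 array (range -0.04 to 1.64 over the fits without 1 array, and -0.04 to 3.06 over all its alternatives). The diet count thus moved with the scaling, the filter, the variance model and the arrays used; the cause was not tested.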
